A study of Homo sapiens with 8 samples.

Results

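The 9 genes described here carry out peptide presentation by HLA class I molecules: the heavy chains HLA-B, HLA-C, HLA-E and HLA-F, the light chain B2M, the peptide transporter subunits TAP1 and TAP2, the loading factor TAPBP and the transactivator NLRC5. They were found by gene name among the 60282 genes of the count table, with 1 row for each name, and all 9 were among the 14073 genes with enough reads to be tested. Other HLA class I rows were not analysed here, apart from HLA-G below. The study treated SK-UT-1, an established human uterine leiomyosarcoma cell line, with TP-472, an inhibitor of the bromodomain proteins BRD9 and BRD7, at 5 µM for 48 h, or with vehicle (DMSO), in 4 replicates each. Both groups were the same line in the same medium, and the comparison asks how the inhibitor alters RNA levels in these cells.

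A class I molecule is a heavy chain held by beta-2-microglobulin, the B2M product, with a short peptide in its groove. The proteasome cuts peptides from cell proteins, TAP1 and TAP2 together carry them into the endoplasmic reticulum, and tapasin, the TAPBP product, bridges the transporter and the empty heavy chain during loading. HLA-B and HLA-C are classical chains that show peptides to CD8+ T cells, whereas HLA-E and HLA-F are non-classical chains read mainly by receptors of natural killer cells. NLRC5 binds class I promoters with RFX, NF-Y and CREB-family factors and drives their transcription, and interferons raise most genes of the pathway through STAT and IRF factors.

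The promoters are shown so that HLA-C, HLA-F and TAPBP, which were called lower with TP-472, can be read beside B2M and TAP1. HLA-B, which was lower by less than the fold limit given below and was not called, is shown with them. B2M and TAP1 did not pass the test. The set of RefSeq windows used here (GRCh38.p14) ran from 250 bases before to 50 bases after the start. It covered 7 of the 9 genes and held no window for HLA-E and NLRC5. The 200 bases before the start are printed for 6 of the 7 genes, 5′ to 3′ on the strand of the gene. Capitals mark matches, on either strand, to a longer string (GAAA, any 2 bases, then GAAA) or the shorter GAANNGAAA (both made of letters of the interferon-stimulated response element, which IRF factors bind), TTCNNNGAA (letters of the gamma-activated site of STAT factors), CCAAT (the Y box letters of NF-Y) and GGGNNTTCC (letters of an NF-kB site), and neighbouring matches can overlap.
HLA-B, chr6:31357180-31357379, minus strand: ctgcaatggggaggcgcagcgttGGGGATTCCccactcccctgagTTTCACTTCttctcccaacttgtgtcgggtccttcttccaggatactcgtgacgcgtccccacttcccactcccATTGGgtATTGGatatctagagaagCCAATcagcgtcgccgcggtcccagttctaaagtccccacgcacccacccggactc
HLA-C, chr6:31272093-31272292, minus strand: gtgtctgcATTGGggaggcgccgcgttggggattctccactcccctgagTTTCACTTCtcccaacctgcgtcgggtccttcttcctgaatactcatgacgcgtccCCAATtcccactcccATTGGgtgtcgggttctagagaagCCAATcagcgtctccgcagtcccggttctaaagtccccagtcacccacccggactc
HLA-F, chr6:29723234-29723433, plus strand: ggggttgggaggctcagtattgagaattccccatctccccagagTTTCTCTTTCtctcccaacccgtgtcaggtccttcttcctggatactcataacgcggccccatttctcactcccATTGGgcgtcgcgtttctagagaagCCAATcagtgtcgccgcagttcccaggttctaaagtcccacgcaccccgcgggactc
TAPBP, chr6:33314079-33314278, minus strand: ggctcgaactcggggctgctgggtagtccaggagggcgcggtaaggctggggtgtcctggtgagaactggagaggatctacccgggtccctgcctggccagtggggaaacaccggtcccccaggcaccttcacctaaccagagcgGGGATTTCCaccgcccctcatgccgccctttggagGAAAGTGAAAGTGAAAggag
B2M, chr15:44711317-44711516, plus strand: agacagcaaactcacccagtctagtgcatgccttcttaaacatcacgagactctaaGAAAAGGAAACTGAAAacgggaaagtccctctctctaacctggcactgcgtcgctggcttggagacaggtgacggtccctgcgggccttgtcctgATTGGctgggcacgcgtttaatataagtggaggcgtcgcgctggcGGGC
TAP1, chr6:32853705-32853904, minus strand: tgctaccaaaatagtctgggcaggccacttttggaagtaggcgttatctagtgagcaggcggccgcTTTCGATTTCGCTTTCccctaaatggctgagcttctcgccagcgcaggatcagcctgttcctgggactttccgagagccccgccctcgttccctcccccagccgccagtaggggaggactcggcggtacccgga

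All 7 genes with a window held one or both of the 2 interferon-element strings, though the second window of TAP1 held neither. Of the 24519 windows of genes in the table, 9.63% held one or both. The longer string occurred in 5 of the 7, against 3.28% of all windows, in HLA-F at 156, in B2M at 144 and 138, in TAP1 at 134 and 128, in TAP2 at 58 and in TAPBP at 20 and 14 bases before the start. HLA-B and HLA-C had the shorter string alone, at 155 and 151 bases before the start (7% of all windows). CCAAT was present in 5 of the 7 (34.9% of all windows), with 3 matches in HLA-B, 4 in HLA-C, 2 in HLA-F and 1 each in B2M and TAP1, that of TAP1 upstream of the printed stretch. GGGNNTTCC was present in HLA-B, TAPBP and B2M (7.06% of all windows), in B2M at the very end of the printed stretch. TTCNNNGAA was present only in the second TAP1 window, which is not printed (7.09% of all windows). A match gives letters, not a bound site.

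With TP-472, NLRC5, TAPBP, HLA-F and HLA-C were lower, HLA-B was lower by less than the fold limit, and HLA-E, B2M, TAP1 and TAP2 did not pass the test. Levels are CPM, the count of a gene as a share of its library on a fixed scale, after TMM scaling for library size and composition. A gene was called at an adjusted p-value under 0.05 (edgeR quasi-likelihood F test, Benjamini-Hochberg over all genes tested) and a fold change over 1.5. By this rule 4 of the 9 genes were lower and 0 higher with TP-472, against 14.9% called lower, 12% called higher and 26.9% called either way among all genes tested. Without the limit on the fold change 5 were lower, against 19.1% of all genes. Of the 9 genes, 5 had every TP-472 library below every vehicle library, against 21.6% of all genes tested, and 0 had every TP-472 library above, against 23.8%.

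Vehicle replicate 3 stood apart from the other libraries, so the fit of each class I gene and the calls of the related lists are also given without it. Its median Spearman correlation with the other vehicle libraries was 0.914, whereas every other library had 0.988 or more within its group. Relative to the other libraries of its group, its GC-rich genes (4289 tested genes with at least 55% GC in the transcript) were higher than its AT-rich genes (4991 genes under 45%) by a median of 1.48 on the log2 scale, and for the other 7 libraries this difference lay between −0.21 and 0.083. The transcripts of 8 of the 9 genes had a GC content of 54.8% to 60.2%, and that of B2M had 39.4%. The total count was 32574716 in vehicle replicate 3, 34433596 to 36634184 in the other vehicle libraries and 36246466 to 38545695 in the TP-472 libraries. Counts of the 9 genes ran from 151 (HLA-F) to 26618 (B2M) in a library, with a counting error of at most 8.14%, at the lowest count. The study's methods state in general that experiments had biological replicates, but the labels do not say that these libraries came from separate cultures. The p-values judge the group difference against the spread between these libraries. In bulk RNA, a lower level in every cell and a loss of expression in some cells cannot be told apart.

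**Figure D1:**
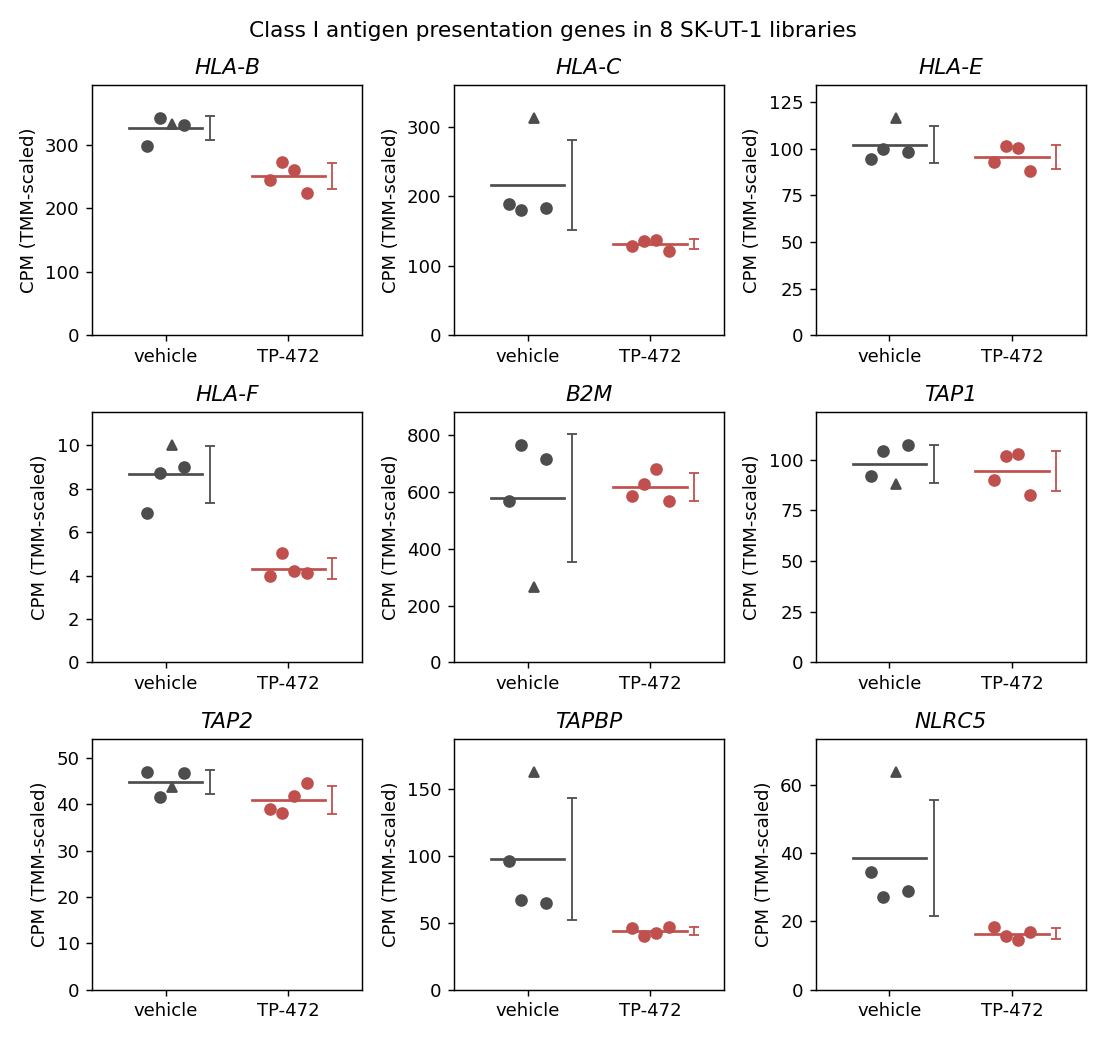
Level of each of the 9 genes in CPM (TMM-scaled) in the 4 vehicle and 4 TP-472 libraries, with the mean (horizontal line) and SD (bar at the side), and vehicle replicate 3 as a triangle. HLA-B, HLA-C, HLA-F, TAPBP and NLRC5 show no overlap between the groups, and vehicle replicate 3 is the highest library for HLA-C, HLA-E, HLA-F, TAPBP and NLRC5 and the lowest for B2M.

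NLRC5 (ENSG00000140853.15; GRCh38 chromosome 16 from 56989485 to 57083531), the transactivator, had the largest log2 fold change of the 9 genes with all 8 libraries. Its level was 34.4, 27.1, 63.8 and 29.1 CPM in vehicle replicates 1 to 4 and 18.5, 15.8, 14.6 and 16.9 CPM in TP-472 replicates 1 to 4. Every treated library was below every vehicle library, and vehicle replicate 3 was 2.11 times the mean of the other vehicle libraries. The mean fell from 38.6 ± 17.1 to 16.5 ± 1.66 CPM (SD, n = 4 in both groups). On the log2 scale this was a change of −1.23 with a standard error of 0.27 (edgeR adjusted p = 0.00799). Leaving out vehicle replicate 3 gave −0.88 with a standard error of 0.11 (adjusted p = 1.17e-04), so that the decrease remained past both limits and was smaller than that of HLA-F in the same fit. With all 8 libraries TAPBP was close to NLRC5, at −1.15 with a standard error of 0.28, and their difference was not tested. An antisense gene, AC023825.2 (57052505 to 57058497), and a processed pseudogene, AC023825.1, lie in the NLRC5 span on the opposite strand. The strand setting of the counting was not given, so their reads may not be told apart from those of NLRC5.

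Among the classical heavy chains, HLA-C (ENSG00000204525.16; chromosome 6 from 31268749 to 31272130) was at 189, 180.2, 313 and 183 CPM in the vehicle libraries and at 128, 136, 138 and 122 CPM in the TP-472 libraries. The groups did not overlap, but the vehicle mean was drawn up by replicate 3, while the other vehicle libraries lay close together. From 216 ± 64.7 to 131 ± 7.17 CPM (SD, n = 4 in both groups), HLA-C changed by −0.73 on the log2 scale, with a standard error of 0.19 (edgeR adjusted p = 0.0163). With that library left out it was −0.49 with a standard error of 0.061 (adjusted p = 1.37e-04), under the 1.5-fold limit, and the call was lost.

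HLA-B (ENSG00000234745.11; chromosome 6 from 31269491 to 31357188) was at 299, 343, 332 and 331 CPM with vehicle and 244, 272, 261 and 224 CPM with TP-472. All treated libraries were lower than all vehicle libraries, and vehicle replicate 3 was within the range of the others. The mean went from 326 ± 19.1 to 250.2 ± 20.7 CPM (SD, n = 4 in both groups), or −0.38 on the log2 scale (95% interval −0.62 to −0.15, edgeR adjusted p = 0.0204), which did not reach 1.5-fold. The value was −0.37 (adjusted p = 0.00364) in the fit without vehicle replicate 3. After GC trends of the libraries had been taken out it was −0.15 (adjusted p = 0.439), and with vehicle replicate 3 left out as well −0.29 (adjusted p = 0.00897). When TP-472 replicate 1, 3 or 4 was left out the adjusted p was 0.0645, 0.0528 and 0.0556, at similar log2 fold changes of −0.38, −0.40 and −0.33. The annotated span of HLA-B runs over HLA-C on the same strand, and heavy chain genes resemble each other in sequence, so how salmon divided reads among them is uncertain.

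The non-classical chains differed from each other. HLA-F (ENSG00000204642.14; chromosome 6 from 29722775 to 29738528) was at 6.90, 8.71, 10.0 and 8.99 CPM in vehicle-treated cells and at 3.96, 5.02, 4.19 and 4.12 CPM in TP-472-treated cells. The lowest vehicle library was above the highest treated library. The mean fell from 8.65 ± 1.30 to 4.32 ± 0.473 CPM (SD, n = 4 in both groups). On the log2 scale HLA-F changed by −1.0 with a standard error of 0.16 (edgeR adjusted p = 0.00198), and by −0.92 without vehicle replicate 3 (adjusted p = 3.31e-04). It was also called after removal of the GC trend (log2 fold change −0.79, adjusted p = 0.00198). HLA-F-AS1, on the opposite strand, overlaps part of this span and runs on past it, from 29726601 to 29749049. The study's methods call the libraries strand-specific, the labels name a kit without saying so, and the strand setting of the counting was not given in the sources used here, so reads of the 2 genes may not be told apart.

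HLA-E (ENSG00000204592.9; chromosome 6 from 30489467 to 30494205) was at 94.6, 99.7, 117 and 98.1 CPM with vehicle and at 92.8, 101, 101 and 88.2 CPM with TP-472. The groups overlapped, with vehicle replicate 3 the highest library. Its log2 fold change of −0.095 (95% interval −0.33 to 0.14, edgeR adjusted p = 0.494) did not pass the test, and it was −0.026 without vehicle replicate 3 (adjusted p = 0.759).

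B2M (ENSG00000166710.20; chromosome 15 from 44711487 to 44718877), the light chain that every heavy chain shares, was at 568, 765, 266 and 715 CPM in the vehicle libraries and at 585, 626, 679 and 569 CPM in the TP-472 libraries. Vehicle replicate 3 was at 0.390 times the mean of the other vehicle libraries, in the direction opposite to HLA-C, TAPBP and NLRC5, and the treated libraries lay within the vehicle range. The log2 fold change was 0.088, with a wide 95% interval of −0.55 to 0.72 (edgeR adjusted p = 0.822). It was −0.15 when vehicle replicate 3 was left out, with a standard error of 0.11 (adjusted p = 0.264).

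The transporter subunits did not pass the test either. TAP1 (ENSG00000168394.11; chromosome 6 from 32845209 to 32853978) was at 92.0, 104, 87.9 and 107 CPM with vehicle and at 90.2, 102, 103 and 82.6 CPM with TP-472. TAP2 (ENSG00000204267.16; chromosome 6 from 32821833 to 32838780) was at 47.0, 41.6, 43.8 and 46.8 CPM with vehicle and at 39.1, 38.1, 41.8 and 44.7 CPM with TP-472. For both genes the groups overlapped and vehicle replicate 3 was close to the rest. The log2 fold change was −0.053 for TAP1 (95% interval −0.31 to 0.21, edgeR adjusted p = 0.735) and −0.13 for TAP2 (95% interval −0.35 to 0.094, edgeR adjusted p = 0.322), so a decrease of 1.5-fold lay outside both intervals. With vehicle replicate 3 left out these were −0.10 (adjusted p = 0.368) and −0.14 (adjusted p = 0.141). AL669918.1, a protein-coding gene annotated on the same strand from 32813767 to 32838822, spans TAP2. How salmon divided reads between these 2 genes is uncertain.

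TAPBP (ENSG00000231925.12; chromosome 6 from 33299694 to 33314387), which encodes tapasin, was at 96.3, 66.6, 163 and 64.4 CPM in the vehicle libraries and at 46.3, 40.4, 42.6 and 46.8 CPM in the TP-472 libraries. The treated libraries were alike and all below the vehicle libraries, which spread widely. The mean fell from 97.5 ± 45.8 to 44.0 ± 3.07 CPM (SD, n = 4 in both groups), which is −1.15 on the log2 scale with a standard error of 0.28 (edgeR adjusted p = 0.0133). Vehicle replicate 3 was at 2.15 times the mean of the others, and without it the change was −0.78 with a standard error of 0.13 (adjusted p = 8.39e-04) and still called.

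Without vehicle replicate 3, 3 of the 9 genes were called lower (NLRC5, TAPBP and HLA-F), against 13.4% of all genes in that fit. The same 3 genes were called, and HLA-C was not, when each library's trend with GC content was removed (14.8% of all genes called lower), and when both were done (12.8%). The last of these fits was added once the data had been seen, and in it NLRC5, TAPBP and HLA-F had log2 fold changes of −0.81, −0.70 and −0.87.

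**Figure D2:**
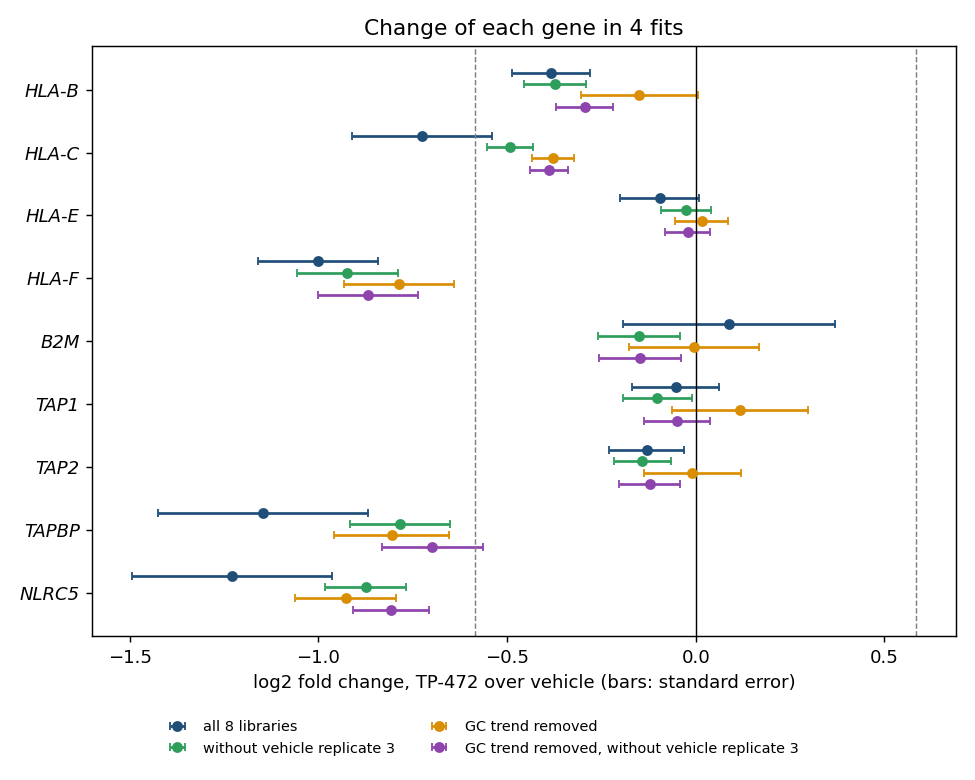
Log2 fold change of each gene, TP-472 over vehicle, with its standard error, from 4 fits: all 8 libraries, without vehicle replicate 3, with the GC trend of each library removed, and both together (dashed lines, 1.5-fold). NLRC5, TAPBP and HLA-F lie beyond −1.5-fold in each fit, HLA-C does so with all 8 libraries alone, and HLA-E, B2M, TAP1 and TAP2 lie between −0.15 and 0.12.

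Per length of transcript, the level of the 9 genes spanned a wide range. In vehicle-treated cells the mean was 339 ± 132 CPM per kb for B2M, 211 ± 12.3 for HLA-B, 141 ± 42.1 for HLA-C, 51.6 ± 24.3 for TAPBP, 39.3 ± 3.79 for HLA-E, 33.1 ± 3.17 for TAP1, 17.9 ± 1.05 for TAP2, 5.66 ± 2.51 for NLRC5 and 5.29 ± 0.794 for HLA-F (SD, n = 4). In this order the libraries of B2M, HLA-B and HLA-C overlapped from one gene to the next only through vehicle replicate 3, where B2M was at 156, HLA-B at 215 and HLA-C at 204 CPM per kb. TAPBP overlapped HLA-E, and NLRC5 overlapped HLA-F. HLA-E and TAP1 were separated narrowly (lowest 36.4 against highest 36.3 CPM per kb). In TP-472-treated cells the order was B2M (361 ± 28.9 CPM per kb), HLA-B (162 ± 13.4), HLA-C (85.2 ± 4.67), HLA-E (36.8 ± 2.44), TAP1 (31.9 ± 3.28), TAPBP (23.3 ± 1.62), TAP2 (16.4 ± 1.18), HLA-F (2.64 ± 0.289) and NLRC5 (2.41 ± 0.243), with overlap between neighbours for HLA-E and TAP1 and for HLA-F and NLRC5 alone. TAPBP was at 51.0, 35.3, 86.1 and 34.1 CPM per kb in the vehicle libraries, below HLA-E in replicates 2 and 4 and below TAP1 in replicate 4, and its mean was raised by replicate 3. With TP-472 it was below both genes in every library. The length was that of the longest principal transcript in GENCODE 29. For B2M this was 1705 bases, and its shortest principal transcript of 943 bases would give a higher level still.

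**Figure D3:**
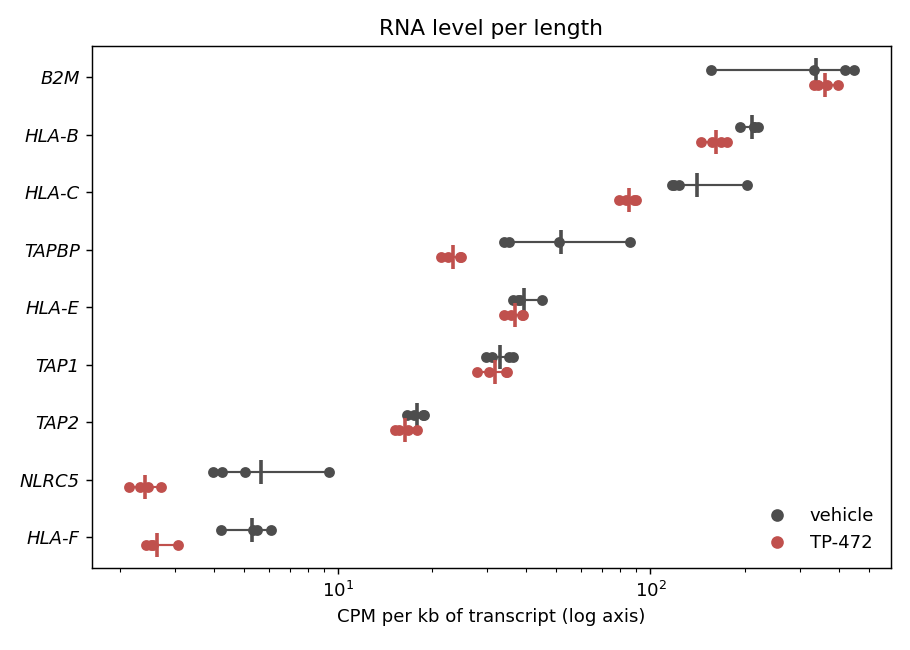
Level of each gene in CPM per kb of transcript (log axis) in each vehicle and TP-472 library, ordered by the vehicle mean (vertical ticks, group means; lines, range). B2M, HLA-B and HLA-C are the most abundant in both groups, TAPBP overlaps HLA-E and TAP1 with vehicle and lies below both with TP-472, and NLRC5 and HLA-F are the least abundant.

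A ratio of 2 genes within a library does not depend on how libraries are scaled. It can still carry a GC trend of the library, since the heavy chain transcripts had 54.8% to 60.2% GC and that of B2M 39.4%. The GC trend was not removed from these ratios, and its part in them was not tested. HLA-B RNA relative to B2M RNA was 0.526, 0.448, 1.25 and 0.463 in the vehicle libraries and 0.417, 0.434, 0.384 and 0.394 in the TP-472 libraries. HLA-C relative to B2M was 0.333, 0.236, 1.18 and 0.256 with vehicle and 0.219, 0.217, 0.203 and 0.214 with TP-472. HLA-F relative to B2M was 0.0121, 0.0114, 0.0376 and 0.0126 with vehicle and 0.00677, 0.00801, 0.00617 and 0.00724 with TP-472. In these 3 ratios every treated library was below every vehicle library, replicate 3 being far above the other vehicle libraries. The log2 ratio differed between the groups by −0.58 for HLA-B, −0.88 for HLA-C and −1.19 for HLA-F (two-sided exact permutation test over 70 assignments, p = 0.0286 each, the smallest it can give, and 0.0476 each after adjustment over 5 ratios). The differences without vehicle replicate 3 were −0.23, −0.35 and −0.78, and all 3 ratios still passed (exact permutation test, adjusted p = 0.0476 each). They also passed without any 1 of the other vehicle libraries. Leaving out any 1 TP-472 library kept the differences between −0.61 and −0.55, −0.89 and −0.86, and −1.25 and −1.13. All 3 calls then ended (exact permutation test, adjusted p = 0.143 to 0.286), though the groups stayed apart. With 3 treated libraries, a split that puts the extreme vehicle replicate 3 in the smaller group can exceed the true split. These lost calls therefore do not show how much the result rests on a treated library. For HLA-E over B2M the groups overlapped (difference −0.29, exact permutation test, adjusted p = 0.886), and without vehicle replicate 3 the difference was 0.12. TAP1 over TAP2 ran from 1.96 to 2.51 with vehicle and from 1.85 to 2.67 with TP-472 (difference 0.077, exact permutation test, adjusted p = 0.786).

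**Figure D4:**
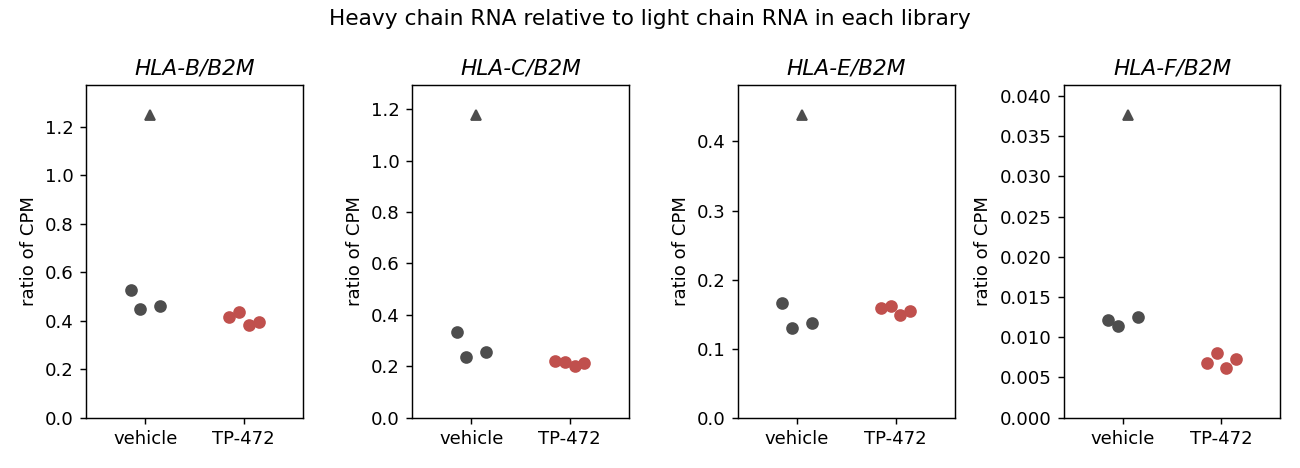
Ratio of the CPM of each heavy chain gene to that of B2M in every library, with vehicle replicate 3 as a triangle. The TP-472 libraries lie below the vehicle libraries for HLA-B, HLA-C and HLA-F and within their range for HLA-E, and vehicle replicate 3 is the highest library in each panel.

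Of 10 proteasome and activator genes, 1 was called lower and 0 higher, near the 14.9% and 12% of all genes (median log2 fold change −0.044, against −0.026 over all genes tested and −0.38 over the 9 class I genes). Estimates were negative for 5 of the 10 (PSMB8, PSMB9, PSMB10, PSME1 and PSME2) and positive for PSMB5, PSMB6, PSMB7, PSMA1 and PSMA3, most of them short of the test, with PSMB7 at 0.56 (adjusted p = 0.0316), under the fold limit. The gene called was PSMB9, an interferon-inducible subunit of the immunoproteasome, at 13.3, 18, 8.48 and 17.0 CPM with vehicle and 7.27, 7.89, 8.32 and 5.73 CPM with TP-472 (log2 fold change −0.96, standard error 0.24, edgeR adjusted p = 0.0148, and −1.14 without vehicle replicate 3). PSMB9 and TAP1 are known to share a promoter region that serves both directions, and their spans overlap on opposite strands. TAP1 had a log2 fold change of −0.053, and the difference between the 2 genes was not tested. The most abundant gene of the list with vehicle that was not called was PSME2, a subunit of the proteasome activator (log2 fold change −0.46, adjusted p = 0.0272). PSME1, its partner subunit, was called lower as well without vehicle replicate 3 (log2 fold change −0.64).

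Of 9 genes of peptide trimming and loading, 3 were called lower and 0 higher (median −0.23), against 14.9% and 12% of all genes. ERAP2, an aminopeptidase that trims peptides in the endoplasmic reticulum, was at 116, 121, 91.4 and 117 CPM with vehicle and 50.3, 51.5, 53.8 and 54.0 CPM with TP-472 (log2 fold change −1.09, edgeR adjusted p = 2.79e-04). Its groups were far apart, and without vehicle replicate 3 the change was −1.17. TAPBPL, the tapasin-related peptide editor, changed by −0.93 (adjusted p = 0.0348) and ERAP1, the related trimming enzyme, by −0.60 (adjusted p = 0.0156) on the log2 scale. TAPBPL was at −0.56 without vehicle replicate 3 and was not called, whereas ERAP1 and ERAP2 were, together with LNPEP, a related aminopeptidase. CALR, the chaperone calreticulin, was the most abundant gene of the list with vehicle (log2 fold change −0.011, adjusted p = 0.954).

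Among 9 other chains of the class I fold, 6 passed the filter, of which 3 were called lower and 0 higher (median −0.22), against 14.9% and 12% of all genes. HFE, which regulates iron uptake, was at 16.7, 20.3, 18.2 and 18.3 CPM with vehicle and 6.34, 5.69, 5.88 and 5.97 CPM with TP-472. The log2 fold change was −1.62 (edgeR adjusted p = 5.70e-05), larger in size than that of any of the 9 class I genes, and the same without vehicle replicate 3. FCGRT, the heavy chain of the neonatal Fc receptor, changed by −1.11 (adjusted p = 0.00185) and MR1, which presents vitamin metabolites, by −0.70 (adjusted p = 0.0102). These 3 chains also pair with beta-2-microglobulin. PROCR, the endothelial protein C receptor, which does not, had a log2 fold change of 0.58 (adjusted p = 0.0142) and was not called. Leaving out vehicle replicate 3, the same 3 chains were called lower, against 13.4% of all genes in that fit. MICA, a stress-induced ligand of natural killer cells, was then called higher (log2 fold change 0.59), against 12% of all genes. HLA-G was under the filter, at 1 to 10 counts in the vehicle libraries and 4 to 6 in the TP-472 libraries.

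Of 14 transcription factors that act on class I promoters, 3 were called lower and 0 higher (median −0.17). The count is near the 14.9% of all genes called lower, as are the 2 called without vehicle replicate 3, against 13.4%. These were IRF9 (log2 fold change −1.57, edgeR adjusted p = 2.08e-04), STAT2 (−1.41, adjusted p = 8.05e-05) and IRF2 (−0.69, adjusted p = 0.00667). IRF9 and STAT2 act in the response to type I interferon, and IRF2 binds the interferon-stimulated response element. IRF9 was at 47.0, 53.6, 68.7 and 50.4 CPM with vehicle and 18.9, 19.5, 20.3 and 15.5 CPM with TP-472, so the groups were far apart and vehicle replicate 3 was the highest library. Without vehicle replicate 3, IRF9 and STAT2 remained called (log2 fold changes −1.44 and −1.33) and IRF2 did not (−0.58, adjusted p = 6.17e-04). RFX5, a DNA-binding partner of NLRC5 and the most abundant gene of the list with vehicle, had a log2 fold change of −0.29 (adjusted p = 0.0986), and −0.39 without vehicle replicate 3 (adjusted p = 0.00146), under the fold limit.

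Class II genes were low in these cells. Of 11 genes, 4 passed the filter and 2 were called lower, against 14.9% of all genes: HLA-DMA (log2 fold change −1.12, edgeR adjusted p = 0.00358) and HLA-DMB (−0.66, adjusted p = 0.00968), the chains of the factor that exchanges class II peptides. The groups did not overlap for either, at 2.40 to 3.23 against 1.06 to 1.69 CPM for HLA-DMA and 6.57 to 8.71 against 4.36 to 5.66 CPM for HLA-DMB. Both were also called without vehicle replicate 3 (log2 fold changes −1.19 and −0.73). HLA-DRB1, a chain of HLA-DR and the most abundant gene that was not called, had a log2 fold change of −0.22 (adjusted p = 0.484). CIITA, the class II counterpart of NLRC5, was under the filter, at 20, 25, 30 and 14 counts in the vehicle libraries and 5, 9, 3 and 3 counts in the TP-472 libraries. HLA-DRA, a class II chain, had 7 to 10 counts with vehicle and 3 to 5 with TP-472. HLA-DPB1 went the other way, at 1, 1, 3 and 2 against 4, 5, 9 and 6 counts, and CD74, the invariant chain, had 3 to 16 against 13 to 19 counts. These genes under the filter were not tested.

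A further list held 17 genes of the MHC region on chromosome 6 that were entered as having no role in presentation. Of these, 4 were called lower and 0 higher (median −0.20), against 14.9% called lower among all genes. They were RXRB, EHMT2, BAG6 and RGL2, with log2 fold changes of −0.99, −0.81, −0.65 and −0.60 (edgeR adjusted p = 0.00500, 0.0386, 0.0433 and 0.00674). RXRB encodes a retinoid X receptor and EHMT2 a histone methyltransferase. Without vehicle replicate 3, 1 was called lower (RXRB) and 1 higher (WDR46), against 13.4% and 12% of all genes. TUBB, a tubulin gene and the most abundant of the list, had a log2 fold change of −0.43 (adjusted p = 0.0216).

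**Figure D5:**
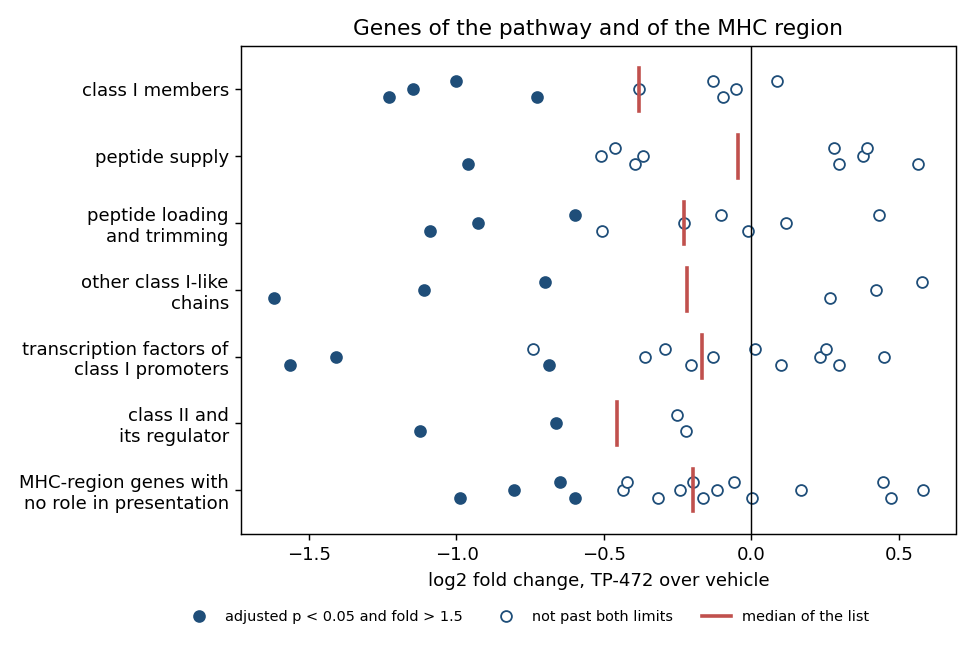
Log2 fold change, TP-472 over vehicle, of each tested gene of the class I set and of 6 lists of related or neighbouring genes, filled where adjusted p was under 0.05 and the fold change over 1.5, with the median of the list as a line. Every filled gene is on the lower side, the most extreme being HFE, IRF9 and STAT2.

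The 10 genes whose pattern was most like the mean standardised level of the 9 genes over the 8 libraries were SCD5, H2BC17, ALDH1L1, KIRREL2, SHMT1, DNPH1, SMARCD3, SLC37A4, TMUB2 and CD99, with Pearson r from 0.995 to 0.987. All 10 had a negative log2 fold change, from −1.22 (ALDH1L1) to −0.42 (CD99), and were 1.04 to 1.38 times as high in vehicle replicate 3 as in the mean of the other vehicle libraries. The 8 points share 1 cell line and 1 treatment, so r follows the group difference. The 9 genes were themselves unlike in this measure: r with their own mean was 0.973 for HLA-F, 0.963 for HLA-B, 0.895 for HLA-C, 0.847 for NLRC5 and 0.800 for TAPBP, but 0.665 for HLA-E, 0.507 for TAP2, 0.347 for TAP1 and −0.31 for B2M.

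Markers of the label and of other cell types were checked in the same libraries. Of 8 smooth muscle genes, 7 passed the filter, led by TPM2 (448 ± 147 CPM with vehicle) and with ACTA2 at 160.3 ± 16.7 CPM (SD, n = 4), while MYH11, the smooth muscle myosin, was near 0 (0.00703 CPM). The 8 genes summed to 742 to 1048 CPM with vehicle and 636 to 701 CPM with TP-472, and the part of this difference in the class I results was not tested. Of the 7 tested, 3 were called lower and 0 higher, against 14.9% and 12% of all genes, and 6 had negative estimates, as did 7293 of all 14073 genes. DES, the muscle intermediate filament desmin, changed by −2.36 (edgeR adjusted p = 1.89e-04), MYLK, the kinase of myosin light chain, by −1.5 (adjusted p = 7.57e-04) and TAGLN, the actin-binding protein transgelin, by −0.67 (adjusted p = 0.00397) on the log2 scale. ACTA2, smooth muscle actin, was at −0.55 (adjusted p = 0.00426), with the groups apart, and without vehicle replicate 3 it was called (−0.59) beside DES, MYLK and TAGLN, whereas CNN1 was at 0.13 (adjusted p = 0.696). Of 12 leukocyte genes, 7 had 0 counts in each vehicle library and 4 (CD3E, MS4A1, NKG7 and AIF1) had 0 in all 8, while PTPRC, the marker of all leukocytes, had 1 count in 1 TP-472 library and 0 in the others. The list summed to 7.79 to 9.32 CPM with vehicle and 11.5 to 14.8 CPM with TP-472, mostly from CD68, a lysosomal protein (7.53 against 10.4 CPM). Of 5 endothelial genes, 1 passed the filter and was called lower, against 14.9% of all genes. This was EMCN, a membrane mucin, with a log2 fold change of −1.42 (19.9 against 7.43 CPM, edgeR adjusted p = 2.60e-04). CDH5 and KDR had 0 counts in each vehicle library. The other 4 genes were near 0 in both groups, with the higher counts under TP-472: PECAM1 had 0, 1, 0 and 1 counts with vehicle and 9, 7, 4 and 9 with TP-472, VWF had 2 to 4 and 5 to 10, CDH5 0 and 2 to 3, and KDR 0 and 0 to 3. Of 5 epithelial keratins and adhesion genes, 3 passed the filter, of which 1 was called higher and 1 lower, against 12% and 14.9% of all genes. KRT18 was higher (log2 fold change 1.08, edgeR adjusted p = 7.26e-04) and KRT19 lower (−0.85, adjusted p = 0.0151). KRT8 was at 0.52 (adjusted p = 0.0959) and was not called. EPCAM and CDH1 were under the filter, at 22 to 29 against 8 to 11 counts and at 7 to 27 against 11 to 26 counts. EMCN, KRT18 and KRT19 kept these calls without vehicle replicate 3. The share of counts from mitochondrial genes was 0.285% to 0.424% with vehicle and 0.199% to 0.282% with TP-472, and its part in the class I results was not tested.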

How the data were processed

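RNA of 4 vehicle and 4 TP-472 libraries of SK-UT-1 cells was sequenced. The deposited table holds estimated counts per gene, which the authors made by mapping reads to the human transcriptome with Salmon 1.4.0 (submitters' processing notes) and summing transcripts to genes, with no scaling. The build is GRCh38. Rounding made these counts whole. Genes over 1 CPM in at least 4 libraries (14073) were scaled by TMM, and edgeR 4.0.16 (R 4.3.3) gave quasi-likelihood F tests, with Benjamini-Hochberg adjustment over all of them. The limits for a call, 0.05 for the adjusted p-value and 1.5 for the fold, are those of the study's methods. Fits used limma 3.58.1 and DESeq2 1.42.0 as alternatives, and the fitting steps were tested on simulated data. No pair of libraries agreed within sampling noise (lowest mean chi-square 12.8). Positions, lengths and GC content came from GENCODE 29 (GRCh38), and promoters from RefSeq. The study's methods name a later GENCODE release for the counts, so the spans given here may differ from those used in counting. Of the genes in the count table, 96.4% were found in GENCODE 29.

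The class I genes and the related lists were chosen with earlier results of these data known. 1 gene was left out of the counts of its list and is not reported here. All 9 class I genes are given. From each list, up to 4 called genes with the largest change and the gene not called that was most abundant with vehicle are named. The subunits of the proteasome other than PSMB9, PSME1, LNPEP, PROCR, MICA, WDR46, HLA-G, CIITA, HLA-DRA, HLA-DPB1, CD74 and the marker genes singled out were named after their values were seen. Alternatives covered scaling, the filter on low counts, the test, rounding, GC content, the replicate number as a block, the thresholds and each library left out. Removal of the GC trend together with vehicle replicate 3, and the related lists without that library, were added after seeing the data.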

Additional observations from a re-analysis of the deposited data

Results flagged for a closer look

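In 5 of 28 groups of 4 values tested, 1 library lay far from the other 3 by the gap to its neighbour relative to the range, where chance flags about 1 in 20. In each of the 5 it was vehicle replicate 3. HLA-C was at 313 CPM there and at 180.2 to 189 CPM in the other vehicle libraries. The ratio to B2M was 1.25 for HLA-B, 1.18 for HLA-C, 0.438 for HLA-E and 0.0376 for HLA-F in this library, against at most 0.526, 0.333, 0.166 and 0.0126 in the others. The 4 ratios share the same low B2M value. Genes of high GC content were higher in this library than in the rest of its group, as given above, and the part of this in the 5 values was not tested.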

How the results depend on the processing

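HLA-F was called lower under all 26 alternatives (log2 fold change −1.10 to −0.78). HLA-C lost its call under 7: limma-voom with quality weights (−0.46), a test against 1.5-fold, removal of the GC trend (−0.38, and −0.38 with the replicate block), the stricter thresholds, vehicle replicate 3 left out (−0.49), and the last with the GC trend removed (−0.39). Tested against a 1.5-fold change, TAPBP (adjusted p = 0.108) and NLRC5 (adjusted p = 0.0659) were not called either, and TAPBP was not called at an adjusted p under 0.01 and a fold over 2. Over the 26 alternatives TAPBP ranged from −1.30 to −0.62 and NLRC5 from −1.37 to −0.81, both smallest with limma-voom quality weights. Those 2 rules gave 1 and 2 class I genes, all lower, and 1123 and 1207 of all genes against 3789 (594 and 658 lower against 2096, 529 and 549 higher against 1693).

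With each library left out, class I genes called, all lower, ranged from 3 (without vehicle replicate 3) to 4, all genes called from 2690 (without TP-472 replicate 3) to 4223, those lower from 1387 (without TP-472 replicate 3) to 2399 and those higher from 1303 to 1824. The log2 fold change then ranged from −0.15 (without vehicle replicate 3) to 0.25 for B2M and from −0.10 to 0.0056 (without TP-472 replicate 4) for TAP1. The number of ratios that passed ranged from 0 (without any 1 TP-472 replicate) to 3 (without any 1 vehicle replicate). Where 0 passed, HLA-B over B2M stayed at −0.61 to −0.55, HLA-C at −0.89 to −0.86 and HLA-F at −1.25 to −1.13. HLA-E over B2M ranged from −0.47 to 0.12 (without vehicle replicate 3).

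The adjusted p of HLA-B, which was under the fold limit, was over 0.05 without TP-472 replicate 1, 3 or 4 (−0.40 to −0.33 on the log2 scale), with the replicate block (0.0760), with no filter on low counts (0.0819) and with the GC trend removed (0.439, and 0.560 with the block). Genes whose sign turned were ones that had not passed the test. With the GC trend removed, HLA-E was at 0.016, B2M at −0.0036 and TAP1 at 0.12, and with the replicate block as well HLA-E was at 0.017, TAP1 at 0.15 and TAP2 at 0.0016. B2M was at −0.21 with limma-voom quality weights (adjusted p = 0.0198), where TAP2 was at −0.18 (adjusted p = 0.0183), and at −0.15 with the GC trend removed and vehicle replicate 3 left out. The cause was not tested.

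With the replicate block, 4 class I genes and 3055 of all genes were called. Deviations of same-numbered libraries correlated at −0.055, 0.12, −0.17 and −0.18, so the numbers were not taken to pair them. HLA-F had the fewest counts of the 9 genes, 151 to 346 a library (counting error 8.14% at the lowest).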

Other observations

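CD1D, a chain that presents lipids, was under the filter on low counts, at 1, 3, 1 and 0 counts in the vehicle libraries and 11, 11, 15 and 13 counts in the TP-472 libraries, opposite in direction to HFE, FCGRT and MR1. MYH11 had 0, 0, 0 and 1 counts with vehicle and 10, 8, 7 and 10 counts with TP-472, while DES had 104 to 126 against 15 to 28 counts. These 2 genes were chosen after their values were seen, and genes under the filter were not tested.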
